A study of Rattus norvegicus with 120 samples.

Results

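Empagliflozin, a drug that blocks the glucose transporter SGLT2 (gene Slc5a2), was set against vehicle in kidneys of obese ZSF1 rats. The comparison used 19 of the 120 libraries of the series, taken by their labels for tissue, genotype, treatment and study: 10 libraries of obese rats given empagliflozin in study B, and 9 of obese rats given vehicle in study B. Vehicle replicate 8 was left out because it held 0.776 M counts (M, 1000000), under the minimum of 1000000. Empagliflozin and vehicle rats alike were 30-week-old ZSF1 Obese rats that received compounds in chow, with 10 rats per condition in the series text. ZSF1 obese rats lack a working leptin receptor, overeat and develop diabetes with kidney disease. Both groups carry that defect, so the comparison describes the drug in a diseased kidney. Dose, duration and sex are not given in the labels. The labels name the tissue kidney only; in the series text both whole kidney and cortex occur. Side comparisons used obese vehicle (10) against lean vehicle rats (9) of study A, which share no library with study B, and the 10 obese rats of study B given BT2 plus empagliflozin. BT2 inhibits BDK, the kinase that switches off the breakdown of branched-chain amino acids. For some genes, levels in obese rats given BT2 alone in study A (9 libraries) are given without a test. Lean replicate 8 was left out because earlier results showed muscle transcripts in it.

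SGLT2 sits in the brush border of the first proximal tubule segments and takes filtered glucose back into the body. Blocking it sends glucose and sodium on to the later nephron. The proximal tubule also makes glucose from lactate and amino acids, reclaims phosphate through the transporters Slc34a1 and Slc34a3, and activates and inactivates vitamin D. Phosphate and vitamin D are steered by parathyroid hormone and by the bone hormone FGF23 with its coreceptor Klotho.

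Empagliflozin libraries held 4.60 to 14.7 M counts with a median of 8.81 M, and vehicle libraries 8.36 to 19.6 M with a median of 9.55 M. Values are counts per 1000000 (CPM) after TMM scaling, and log2 fold changes are empagliflozin over vehicle from edgeR's quasi-likelihood test with plate as covariate, given ± SE. Calls require a p below 0.05 after Benjamini-Hochberg adjustment. Summed CPM of the 14 markers of the first proximal tubule segments was 4455 to 7575 in empagliflozin libraries and 5831 to 8629 in vehicle libraries, so these defining kidney genes were present in all 19 libraries. In these bulk samples fewer cells of a type and less RNA per cell cannot be told apart. The first principal component, 29.1% of the variance, separated plate 1 (replicates 1 to 5) from plate 2 (replicates 6 to 10), except that empagliflozin replicate 1 and vehicle replicates 2 and 3, the plate 1 libraries with a repeat run, had scores of -13.2 to -4.17, between the other plate 1 libraries (20.9 to 45.9) and plate 2 (-33.7 to -17.4). Empagliflozin replicate 1 drew nearly all its 7.61 M counts from the repeat run, as its original run held 0.00594 M. It stood apart with 4011 summed CPM of plasma cell markers against a group median of 96.1 CPM, and with 384.3 CPM of urothelial markers against a median of 11.9 CPM. Empagliflozin replicates 4 and 5 had the highest sums of podocyte markers, at 327.5 and 341.7 CPM (median 195.7), and of distal convoluted tubule markers, at 2151 and 2447 CPM (median 1284).

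Of 14138 genes tested 92 (0.651%) were called, 45 higher (0.318%) and 47 lower (0.332%), while 2591 (18.3%) had an unadjusted p under 0.05. A total of 15 of the 45 higher genes and 3 of the 47 lower genes passed a 2-fold change, and the median log2 fold change was 0.59 over the higher genes and -0.34 over the lower genes. The median over all genes was 0.01. In 8 genes (0.0566%) the groups did not overlap, namely Cyp24a1, Ace, Sectm1b, Ceacam20, Fgf10, Rnf183, Slc10a1 and Sorcs1, all of them higher with empagliflozin. The number called depended on the test: on the same libraries DESeq2 called 559 genes and edgeR with gene-wise dispersions 640. The authors' deposited table called 550 genes, 231 higher and 319 lower. The number of calls moved with single libraries: it was 53, 50, 36 and 41 without empagliflozin replicates 2, 3, 4 and 9, and 58, 54, 57 and 31 without vehicle replicates 2, 3, 9 and 10, but 187 and 181 without vehicle replicates 6 and 7. Of the 92 calls 30 were kept in each of the 19 fits that left out 1 library, 21 of them higher and 9 lower. All 91 called genes that could be fitted in both plates had the same direction in each plate. These genes were called from both plates together, so the shared direction is a description and not a separate test. Fitted alone, plate 1 called 2 genes and plate 2 called 23, of which 2 and 9 were among the 92.

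**Figure D1:**
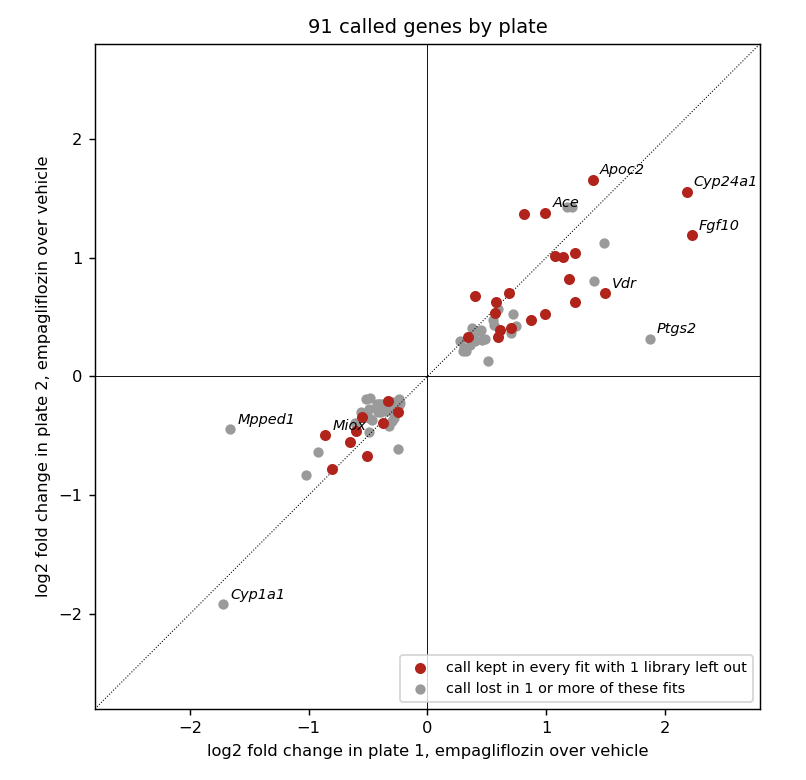
Log2 fold changes of empagliflozin over vehicle fitted in plate 1 alone (x axis) and in plate 2 alone (y axis) for 91 called genes; red points are genes whose call held in each of the 19 fits that left out 1 library, grey points the others, and the dotted line marks equal values. Every point lies at the upper right or lower left, with the same sign on both axes, and Ptgs2 (1.87 and 0.32) and Mpped1 (-1.66 and -0.44) lie far from the line. The genes were called from both plates together, so the shared sign is a description.

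A vitamin D enzyme and the vitamin D receptor rose. Cyp24a1 (ENSRNOG00000013062), which inactivates vitamin D, had the highest log2 fold change of all called genes. It ranged from 321.4 to 676.5 CPM with a median of 366.4 in empagliflozin libraries, and from 88.4 to 173.3 CPM with a median of 96.8 in vehicle libraries. Every empagliflozin library lay above the highest vehicle library, and the highest 2 were replicates 4 and 5. The log2 fold change was 1.89 ± 0.17 (edgeR adjusted p = 4.23e-06), 2.18 in plate 1 and 1.56 in plate 2. Vdr, the nuclear receptor through which active vitamin D acts and which drives Cyp24a1, ranged from 23.3 to 111.3 CPM with a median of 41.3 in empagliflozin libraries, against 15.04 to 28.97 CPM with a median of 21.2 in vehicle libraries. All 10 empagliflozin libraries lay above the vehicle median, although the ranges met. Its log2 fold change was 1.13 ± 0.22 (edgeR adjusted p = 0.0206), 1.49 in plate 1 and 0.70 in plate 2. Empagliflozin replicate 5 held the most of both transcripts, and it also led the podocyte and distal tubule sums. Without empagliflozin replicates 1, 4 and 5 the log2 fold changes were 1.74 for Cyp24a1 and 0.85 for Vdr (edgeR adjusted p = 4.68e-06 and 0.0288). Without the 5 libraries with a repeat run Cyp24a1 kept its call and Vdr lost it (edgeR adjusted p = 0.000233 and 0.142). Cyp24a1 was called in plate 1 and in plate 2 alone (edgeR adjusted p = 0.0109 and 0.00120), Vdr in neither (adjusted p = 0.190 and 0.310).

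Cyp27b1, the opposing enzyme that activates vitamin D, was scarce and did not pass. It averaged 0.781 ± 0.340 CPM in empagliflozin libraries and 1.57 ± 0.665 CPM in vehicle libraries (SD, n = 10 and 9), a log2 fold change of -1.07 ± 0.26 (edgeR adjusted p = 0.0592). Its values were below the vehicle median in 9 of 10 empagliflozin libraries, with 0.455 to 1.57 CPM in empagliflozin libraries against 0.898 to 3.19 CPM in vehicle libraries. Of 15 vitamin D and calcium genes measured, 2 rose, 1 fell and 12 did not pass, with a list median of 0.29. The gene that fell was Pth1r, the receptor for parathyroid hormone, at -0.34 ± 0.08 (edgeR adjusted p = 0.0410). Its call was lost without any 1 of 12 of the 19 libraries (adjusted p = 0.0501 to 0.0910), and likewise without empagliflozin replicates 1, 4 and 5 together (adjusted p = 0.0595). The calcium channel Trpv5, at 0.82, and the calcium-binding Calb1, at 0.45, did not pass (edgeR adjusted p = 0.186 and 0.4903).

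Promoters of 2 higher genes, the receptor Vdr and Ace, are shown because vitamin D receptor binding to DNA has known core letters that can be looked for in them. Each is the 250 bases before the transcription start from RefSeq, and the core hexamers found on either strand are in capitals. Those searched were AGTTCA, in 12.1% of all windows of this length, GGTTCA, in 9.62%, GGGTCA, in 11.8%, AGGTCA, in 13.7%, AGGTGA, in 13.7%, and GGGTGA, in 12.6%.
Vdr promoter, GRCr8 chr7:130916758-130917007, minus strand: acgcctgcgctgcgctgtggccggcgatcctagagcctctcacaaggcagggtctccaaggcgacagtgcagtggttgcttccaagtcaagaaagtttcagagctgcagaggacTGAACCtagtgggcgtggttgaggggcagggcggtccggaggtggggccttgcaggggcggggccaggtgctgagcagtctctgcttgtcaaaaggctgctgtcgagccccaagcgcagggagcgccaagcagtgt
Ace promoter, GRCr8 chr10:91409879-91410128, plus strand: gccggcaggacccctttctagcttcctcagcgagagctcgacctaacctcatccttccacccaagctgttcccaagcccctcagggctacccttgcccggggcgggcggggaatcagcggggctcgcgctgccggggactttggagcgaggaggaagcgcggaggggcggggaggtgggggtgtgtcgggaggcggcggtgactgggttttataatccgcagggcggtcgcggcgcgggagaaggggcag
Vdr held 1 core hexamer, GGTTCA on the strand opposite to the gene, 136 to 131 bases before the start, so that its complement stands in capitals, and Ace held none. Of all 27457 such windows 52.5% held at least 1 hexamer and 0.222% held a direct repeat of 2 hexamers with 3 bases between. Windows were found by symbol for 74 of the 92 called genes, and 17 of 34 higher genes (50.0%) and 22 of 40 lower genes (55.0%) held a hexamer, beside the 52.5% of all windows, while none held the direct repeat. Cyp24a1 was not among the windows.

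The main phosphate transporter fell. Slc34a1 (NaPi-IIa), the main phosphate transporter of the brush border, ranged from 970.0 to 1774 CPM with a median of 1214 in empagliflozin libraries, and from 1294 to 1855 CPM with a median of 1674 in vehicle libraries. Only 1 of 10 empagliflozin libraries, replicate 6, lay above the vehicle median. The log2 fold change was -0.42 ± 0.08 (edgeR adjusted p = 0.0246), -0.49 in plate 1 and -0.35 in plate 2. That call was lost without empagliflozin replicate 4 or 9 or vehicle replicate 10 (edgeR adjusted p = 0.0528 to 0.0560). Slc34a3 (NaPi-IIc), its lower-abundance partner, ranged from 3.30 to 15.6 CPM with a median of 4.99 in empagliflozin libraries, and from 9.57 to 17.2 CPM with a median of 13.9 in vehicle libraries. Its log2 fold change of -0.99 ± 0.23 did not pass (edgeR adjusted p = 0.0534), being -0.45 in plate 1 and -1.68 in plate 2, where it was called (adjusted p = 0.0118). Without empagliflozin replicates 1, 4 and 5 it was called, at -1.14 (edgeR adjusted p = 0.0174), while Slc34a1 lost its call, at -0.38 (adjusted p = 0.0853). Of 12 phosphate handling genes, 2 fell (Slc34a1 and Pth1r) and none rose, with a list median of -0.02. Kl, which encodes Klotho, averaged 37.2 ± 15.3 CPM in empagliflozin libraries and 32.5 ± 10.3 CPM in vehicle libraries and did not pass (0.22 ± 0.17, edgeR adjusted p = 0.505).

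Ace, which converts angiotensin I to angiotensin II, was among the clearest differences. It ranged from 25.3 to 57.2 CPM with a median of 43.0 in empagliflozin libraries, and from 13.7 to 22.4 CPM with a median of 20.2 in vehicle libraries. The groups did not overlap, and empagliflozin replicate 5 was the lowest of its group. The log2 fold change was 1.18 ± 0.12 (edgeR adjusted p = 3.22e-05), 0.99 in plate 1 and 1.38 in plate 2. It was the only one of 10 measured genes of the angiotensin and aldosterone list to be called, and the list median was 0.19. Agt, encoding angiotensinogen, stood at -0.30 ± 0.16 (edgeR adjusted p = 0.320).

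Ptgs2, the inducible cyclooxygenase, which in kidney marks the macula densa among other cells, was higher mainly in 1 plate. Its range was 5.16 to 27.2 CPM with a median of 10.95 in empagliflozin libraries, and 3.06 to 7.63 CPM with a median of 5.53 in vehicle libraries. The 5 plate 1 empagliflozin libraries lay above all vehicle libraries, while those of plate 2 mixed with them. With both plates its log2 fold change was 1.18 ± 0.26 (edgeR adjusted p = 0.0356), 1.87 in plate 1 and 0.32 in plate 2. The call was lost without any 1 of 9 of the 19 libraries (adjusted p = 0.0501 to 0.0749) and without empagliflozin replicates 1, 4 and 5 (0.80, adjusted p = 0.123). It was the only called gene of 11 in the prostaglandin list.

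**Figure D2:**
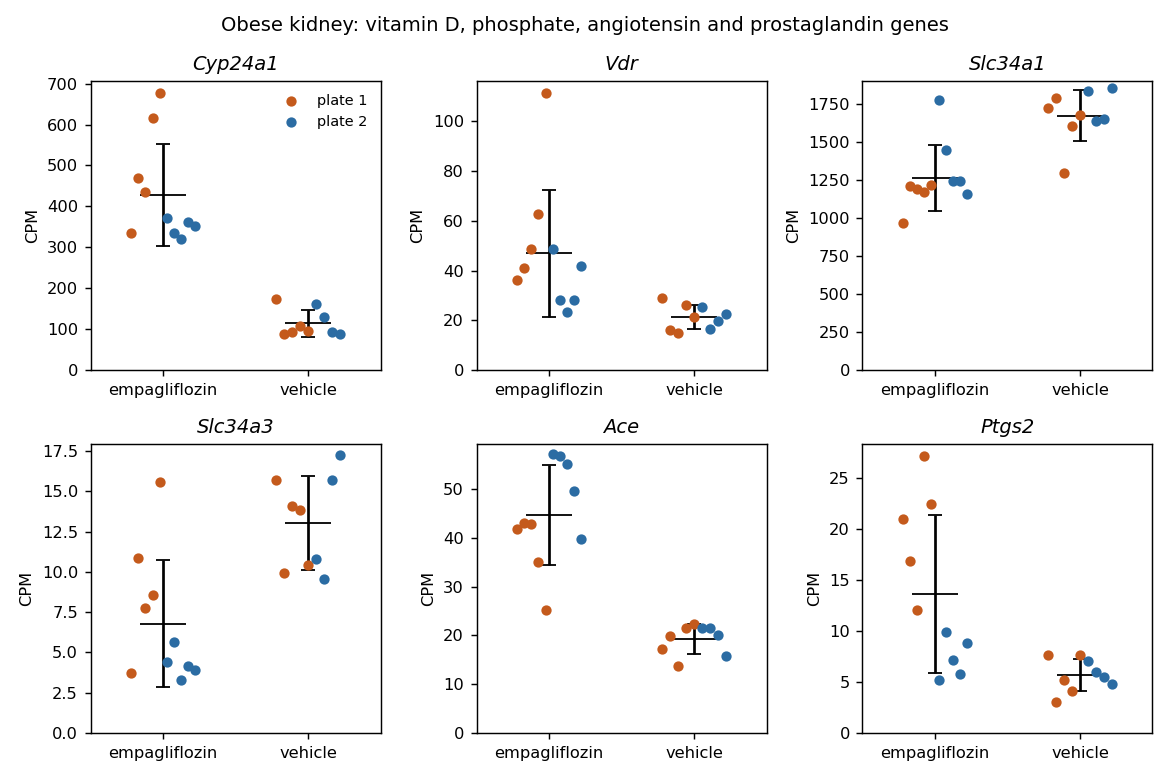
CPM per library (y axis, from 0) of 6 genes in empagliflozin (left, n = 10) and vehicle (right, n = 9) kidneys of obese rats; points are libraries coloured by plate, the long tick is the mean and the bar the SD. Cyp24a1 and Ace do not overlap between the groups, Slc34a1 and Slc34a3 lie lower with empagliflozin, and all 5 plate 1 empagliflozin libraries lie above all vehicle libraries for Ptgs2, while those of plate 2 mix with them.

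Slc5a2, the drug's target, did not pass at the transcript level. It ranged from 51.4 to 262.6 CPM with a median of 79.6 in empagliflozin libraries, and from 62.4 to 121.3 CPM with a median of 91.9 in vehicle libraries. The spread among empagliflozin libraries exceeded the difference, and the highest values, 153.0 and 262.6 CPM, were those of replicates 4 and 5, the same libraries that led the podocyte and distal tubule sums. Its log2 fold change was 0.11 ± 0.25 (edgeR adjusted p = 0.854), 0.72 in plate 1 and -0.59 in plate 2, neither called (adjusted p = 0.316 and 0.248). Slc5a1, encoding SGLT1 of the last proximal segment, stood at 0.07 ± 0.19, the basolateral exit transporter Slc2a2 at 0.20 ± 0.13 and Slc2a1 at 0.02 ± 0.11 (edgeR adjusted p = 0.868, 0.420 and 0.946). None of 12 glucose transport genes was called, beside 0.651% of all genes, and their median was 0.01.

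Both called genes of glucose production fell. Fbp1 (fructose-bisphosphatase), a committed enzyme of glucose synthesis, ranged from 238.9 to 472.3 CPM with a median of 354.9 in empagliflozin libraries, and from 390.6 to 682.6 CPM with a median of 487.8 in vehicle libraries. All 10 empagliflozin libraries lay below the vehicle median, with overlapping ranges. This gave a log2 fold change of -0.53 ± 0.10 (edgeR adjusted p = 0.0181), -0.60 in plate 1 and -0.46 in plate 2. Pc, pyruvate carboxylase, which feeds the same route, fell to 210.5 ± 26.97 CPM in empagliflozin libraries, against 273.9 ± 40.6 CPM in vehicle libraries (-0.39 ± 0.09, edgeR adjusted p = 0.0410). Its call was lost without any 1 of 14 of the 19 libraries (adjusted p = 0.0504 to 0.0843), whereas that of Fbp1 was kept in each of these fits. Without empagliflozin replicates 1, 4 and 5 both missed the threshold, Fbp1 at -0.47 and Pc at -0.35 (edgeR adjusted p = 0.0595 and 0.133). All 9 measured gluconeogenesis genes had negative log2 fold changes, but 2 were called and the list median was -0.14. Pck1, the regulated entry enzyme of that route, varied widely, at 542.3 to 1868 CPM with empagliflozin and 722.3 to 1261 CPM with vehicle, and did not pass (-0.13 ± 0.20, edgeR adjusted p = 0.759).

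Miox, which breaks down myo-inositol in the proximal tubule, had the lowest log2 fold change among called genes over 100 CPM. It ranged from 588.5 to 1150 CPM with a median of 886.1 in empagliflozin libraries, and from 1012 to 2008 CPM with a median of 1245 in vehicle libraries. Every empagliflozin library was below the vehicle median. In log2 terms the difference was -0.69 ± 0.13 (edgeR adjusted p = 0.0190), -0.86 in plate 1 and -0.49 in plate 2. Without empagliflozin replicates 1, 4 and 5 it was -0.57 (edgeR adjusted p = 0.0908). It was the 1 called gene of 7 in the fructose and polyol list, where every log2 fold change was negative and the median was -0.40. The fructose kinase Khk, at -0.53 (edgeR adjusted p = 0.0767), and the aldose reductase Akr1b1, at -0.40 (adjusted p = 0.606), did not pass.

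An organic anion transporter fell. Slc22a6 (OAT1), the basolateral uptake transporter for organic anions and many drugs, ranged from 188.9 to 361.1 CPM with a median of 257.2 in empagliflozin libraries, and from 307.2 to 473.5 CPM with a median of 387.8 in vehicle libraries. All 10 empagliflozin libraries lay below the vehicle median. With both plates its log2 fold change was -0.58 ± 0.10 (edgeR adjusted p = 0.0144), -0.51 in plate 1 and -0.67 in plate 2. Slc10a1, the bile acid transporter known from liver, rose to 9.31 ± 1.45 CPM in empagliflozin libraries, against 4.52 ± 1.48 CPM in vehicle libraries, with no overlap (1.05 ± 0.17, edgeR adjusted p = 0.00637).

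Of the 14 markers of the first proximal tubule segments, 3 fell (Slc34a1, Miox and Slc22a6) and none rose, with a list median of 0.04. The other 11, among them Slc5a2, Slc2a2 and the endocytic receptors Lrp2 (0.08) and Cubn (0.26), did not pass. Of the 14 log2 fold changes 7 were positive and 7 negative.

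Apolipoprotein genes split. Apoc2, the cofactor of lipoprotein lipase, ranged from 17.9 to 51.3 CPM with a median of 29.4 in empagliflozin libraries, and from 4.69 to 24.9 CPM with a median of 8.58 in vehicle libraries. All 10 empagliflozin libraries were above the vehicle median, with ranges that met. This gave a log2 fold change of 1.52 ± 0.28 (edgeR adjusted p = 0.0147), 1.39 in plate 1 and 1.66 in plate 2. Apoc3, an inhibitor of that lipase, ranged from 4.11 to 9.66 CPM with a median of 7.52 in empagliflozin libraries, and from 6.71 to 17.3 CPM with a median of 13.1 in vehicle libraries. Each of the 10 empagliflozin libraries was below the vehicle median. Its log2 fold change was -0.78 ± 0.14 (edgeR adjusted p = 0.0147), -0.80 in plate 1 and -0.78 in plate 2. Apoc2 and Apoc3 kept their calls in each of the 19 fits that left out 1 library. Both lost them without the 5 libraries with a repeat run (edgeR adjusted p = 0.150 and 0.142). The other 10 of 12 measured members of the apolipoprotein and lipoprotein list did not pass, and the list median was 0.02.

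A pair of fatty acid desaturases rose. Fads2, the delta-6 desaturase of polyunsaturated fatty acids, ranged from 26.8 to 45.6 CPM with a median of 33 in empagliflozin libraries, and from 18.8 to 29.1 CPM with a median of 21.2 in vehicle libraries. In log2 terms the difference was 0.60 ± 0.09 (edgeR adjusted p = 0.00304), 0.57 in plate 1 and 0.63 in plate 2. Scd2, a stearoyl-CoA desaturase, averaged 130.4 ± 31.6 CPM in empagliflozin libraries and 88.0 ± 21.5 CPM in vehicle libraries (0.59 ± 0.12, edgeR adjusted p = 0.0224), a call that was lost without vehicle replicate 10 (adjusted p = 0.0522). These were the 2 called genes of 17 in the lipogenesis list, whose median was 0.08, and Fasn (0.01), Acly (0.07) and Srebf1 (0.08) did not pass. Smpd3, a neutral sphingomyelinase that makes ceramide, rose to 8.96 ± 1.78 CPM in empagliflozin libraries, against 4.40 ± 1.57 CPM in vehicle libraries (1.03 ± 0.18, edgeR adjusted p = 0.0144).

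**Figure D3:**
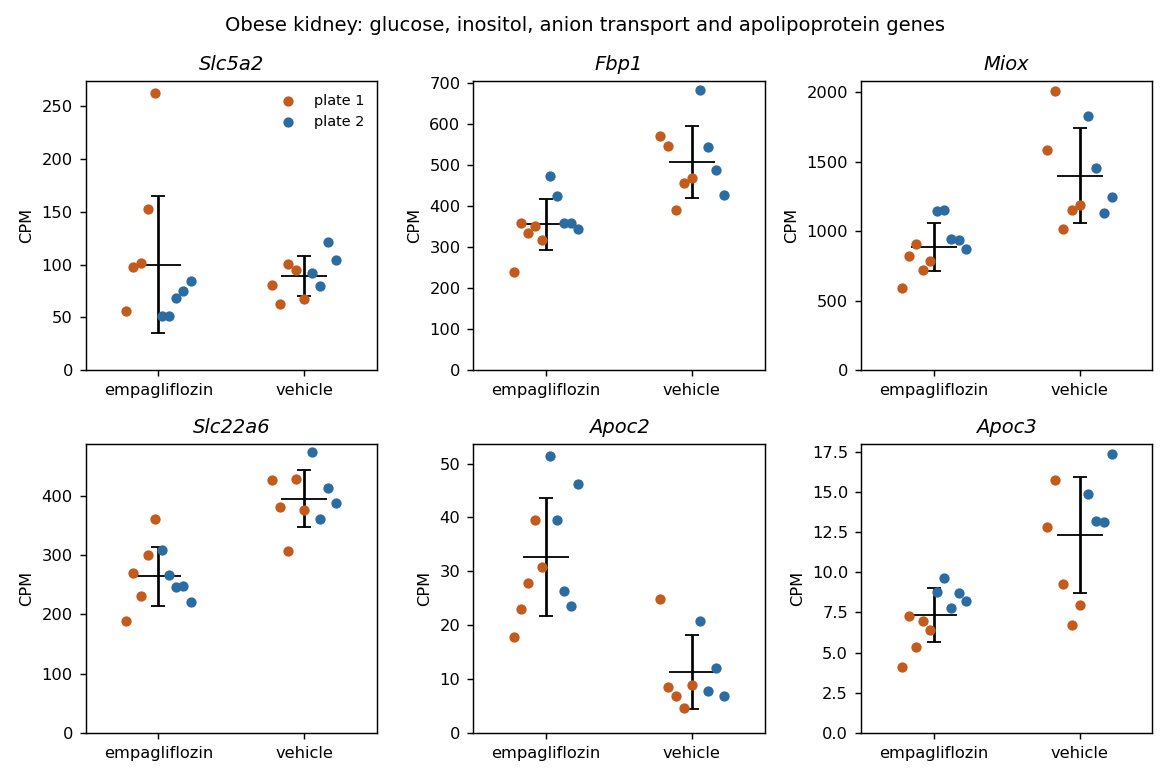
CPM per library (y axis, from 0) of 6 genes in empagliflozin (left, n = 10) and vehicle (right, n = 9) kidneys of obese rats; points are libraries coloured by plate, the long tick is the mean and the bar the SD. Fbp1, Miox, Slc22a6 and Apoc3 lie lower and Apoc2 higher with empagliflozin, while Slc5a2 overlaps fully, with 262.6 CPM in the highest empagliflozin library.

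Most genes of 3 mitochondrial and amino acid lists had small negative log2 fold changes, and few passed. In mitochondrial fatty acid oxidation 17 of 20 log2 fold changes were negative and 2 genes fell: Eci1, which handles unsaturated fatty acids, at -0.41 ± 0.10, and the carnitine carrier Slc25a20 at -0.23 ± 0.05 (edgeR adjusted p = 0.0490 and 0.0355). Of 26 respiratory chain and ATP synthase genes 22 were negative and 1 fell, Cox5b of complex IV at -0.34 ± 0.08 (edgeR adjusted p = 0.0455). That list does not hold all subunits. Outside it Ndufa6 of complex I and Cox6a1 of complex IV also fell, at -0.29 each (edgeR adjusted p = 0.0410 and 0.0455). Their calls were lost in 13 and 14 of the 19 fits that left out 1 library. In the list of other amino acid catabolism 22 of 26 were negative and 2 fell, the serine enzyme Shmt2 at -0.33 ± 0.07 and the urea cycle enzyme Asl at -0.33 ± 0.07 (edgeR adjusted p = 0.0329 and 0.0329). The list medians were -0.13, -0.16 and -0.14, beside 0.01 over all genes. Negative changes were not particular to these lists. They made up 14 of 18 in the citric acid cycle, 12 of 16 in PPAR alpha targets, 11 of 16 in peroxisomal oxidation and 7 of 11 in ketone body genes. The calls of Eci1, Slc25a20, Cox5b, Shmt2 and Asl were each lost in 16, 11, 15, 7 and 9 of the 19 fits that left out 1 library. Slc25a20, Cox5b and Shmt2 also lost their calls without empagliflozin replicates 1, 4 and 5 together (edgeR adjusted p = 0.0847, 0.137 and 0.108). The mitochondrial share of counts, from transcripts of the mitochondrial genome, was 10.1% to 15.2% with a median of 13.6% in empagliflozin libraries and 12.6% to 17.2% with a median of 14.4% in vehicle libraries, and its part in these values was not tested. Ketone body genes (0 of 11 called), citric acid cycle genes (0 of 18), PPAR alpha targets (0 of 16) and peroxisomal oxidation genes (0 of 16) gave no call. Over all genes 0.651% were called, a share at which lists of this size can hold none.

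Branched-chain amino acid catabolism, the pathway of the study's other drug, had 0 of 25 genes called with empagliflozin, beside 0.651% of all genes, and its median was -0.02. Ppm1k, the phosphatase that activates the pathway's dehydrogenase, averaged 18.9 ± 7.80 CPM in empagliflozin libraries and 14.9 ± 4.28 CPM in vehicle libraries (0.34 ± 0.23, edgeR adjusted p = 0.437). Bckdha, a subunit of that dehydrogenase, stood at -0.20 ± 0.09 (edgeR adjusted p = 0.242).

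Lists of injury, matrix, interferon and cell cycle genes held no called gene, beside 0.651% called over all genes, a share at which lists of this size can hold none. Havcr1, encoding the injury marker KIM-1, ranged from 198.6 to 420.9 CPM with a median of 336.0 in empagliflozin libraries, and from 192.1 to 403.6 CPM with a median of 328.3 in vehicle libraries. The groups overlapped almost fully, at 0.11 ± 0.13 (edgeR adjusted p = 0.699). Lcn2, encoding NGAL, stood at 0.20 ± 0.20 (edgeR adjusted p = 0.642). None of 21 tubule injury, 28 extracellular matrix, 22 interferon response and 22 cell cycle genes was called, with medians of 0.06, 0.02, 0.17 and 0.21. Self-tests on simulated counts for this comparison over 14013 genes recovered 93.9% of genes changed 2-fold and 64.6% of genes changed 1.5-fold. Unlike the data, the simulated counts held no plate effect and no library set apart from its group, so recovery in the data may be lower. Changes in these lists, 2-fold ones among them, may therefore have been missed. Txnip, a transcript that follows glucose inside cells, was not called either, at -0.10 ± 0.08 (edgeR adjusted p = 0.525).

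Lists of podocytes, distal convoluted tubule and thick ascending limb gave no call, beside 0.651% called over all genes. All 9 measured podocyte markers had positive log2 fold changes with none called (median 0.23), and Nphs1, encoding nephrin, stood at 0.46 ± 0.26 (edgeR adjusted p = 0.346). All 7 measured distal convoluted tubule markers were positive with none called (median 0.29), led by the thiazide-sensitive transporter Slc12a3 at 0.84 ± 0.28 (edgeR adjusted p = 0.127). In the thick ascending limb Umod, encoding uromodulin, and Slc12a1, the loop diuretic target, stood at -0.04 ± 0.15 and -0.19 ± 0.15 (edgeR adjusted p = 0.907 and 0.530). Without empagliflozin replicates 1, 4 and 5 the log2 fold changes of Nphs1 and Slc12a3 were 0.17 and 0.50 (edgeR adjusted p = 0.763 and 0.304). Plasma cell, B cell and T cell markers were all positive and uncalled (5, 6 and 8 measured), and Jchain, an antibody chain, ranged from 1.72 to 437.4 CPM in empagliflozin libraries and 2.60 to 9.31 CPM in vehicle libraries. The 437.4 CPM belonged to empagliflozin replicate 1, and without replicates 1, 4 and 5 the log2 fold change of Jchain was 0.59 (edgeR adjusted p = 0.414), against 2.96 (adjusted p = 0.0969) with them.

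**Figure D4:**
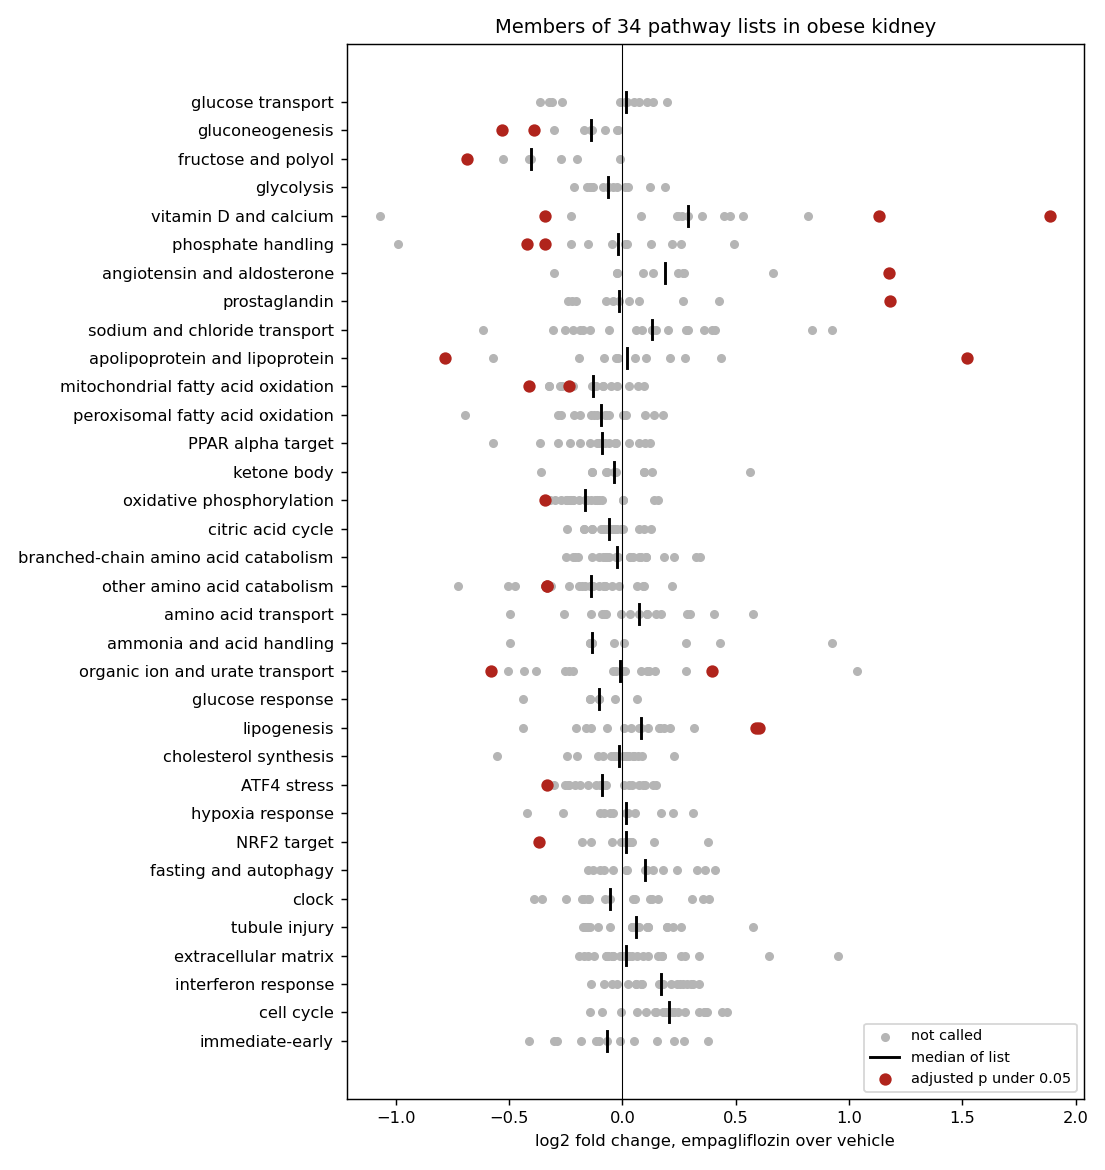
Log2 fold change of empagliflozin over vehicle (x axis) for each measured member of 34 pathway lists (rows); red points are genes with an adjusted p under 0.05, grey points the others, and the black tick is the list median. Called members are few: the highest are Cyp24a1 (1.89) in vitamin D and calcium and Apoc2 (1.52) in apolipoprotein and lipoprotein, and the rows for injury, matrix, interferon and cell cycle hold no red point.

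Several of the highest and lowest called genes fell outside the lists. Sectm1b, named as a secreted and transmembrane protein, ranged from 60.0 to 113.3 CPM with a median of 95.7 in empagliflozin libraries, and from 30.2 to 59.6 CPM with a median of 43.9 in vehicle libraries. The groups came close but did not overlap, at 1.08 ± 0.13 (edgeR adjusted p = 0.000151). Ceacam20, an adhesion molecule, rose to 8.67 ± 2.62 CPM in empagliflozin libraries, against 3.87 ± 0.778 CPM in vehicle libraries (1.16 ± 0.17, edgeR adjusted p = 0.00304). Rnf183, a ubiquitin ligase of the kidney, rose to 102.9 ± 20.8 CPM in empagliflozin libraries, against 60.4 ± 13.4 CPM in vehicle libraries (0.77 ± 0.13, edgeR adjusted p = 0.00714). Fgf10, a growth factor, was also higher at low levels, with 3.33 CPM on average in empagliflozin libraries and 0.954 CPM in vehicle libraries (1.80 ± 0.27, edgeR adjusted p = 0.00304). Stra6, the membrane receptor that takes up vitamin A, rose to 16.7 ± 7.28 CPM in empagliflozin libraries, against 8.52 ± 1.69 CPM in vehicle libraries (0.97 ± 0.18, edgeR adjusted p = 0.0174). Cyp2c24, a drug- and fatty acid-oxidising cytochrome that can share reads with close relatives, rose by 1.07 ± 0.20, and AABR07007068.1, described in the deposited table as GDNF family receptor alpha 1, by 1.14 ± 0.23 (edgeR adjusted p = 0.0147 and 0.0246). The call of AABR07007068.1 was lost without empagliflozin replicate 4 or vehicle replicate 2, 3 or 10 (adjusted p = 0.0504 to 0.0560), and without empagliflozin replicates 1, 4 and 5 together (adjusted p = 0.0847). Sorcs1, a sorting receptor, and Ppp1r16b, a phosphatase regulator, rose by 0.70 ± 0.10 and 0.69 ± 0.10 (edgeR adjusted p = 0.00304 each).

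Over all called genes the lowest log2 fold changes were those of Cyp1a1 and Fam25a, at -1.79 and -1.55 (edgeR adjusted p = 0.0329 and 0.0303). Both averaged under 5 CPM in each group, and their calls were lost in 9 and 7 of the 19 fits that left out 1 library. Mgst3 had the smallest adjusted p of the lower genes, at -0.38 (edgeR adjusted p = 0.00840), and kept its call in each of these fits. Among called genes with a mean of at least 5 CPM in either group, the lowest log2 fold change was that of Mpped1, a metallophosphoesterase gene, at -1.07 ± 0.23 (edgeR adjusted p = 0.0361). It held 3.49 to 18.2 CPM in empagliflozin libraries and 11.96 to 28.51 CPM in vehicle libraries, with -1.66 in plate 1 and -0.44 in plate 2, and its call was lost without any 1 of 8 of the 19 libraries (adjusted p = 0.0515 to 0.0803). S100b, a calcium-binding protein, fell to 6.38 ± 1.80 CPM in empagliflozin libraries, against 11.8 ± 3.34 CPM in vehicle libraries (-0.92 ± 0.19, edgeR adjusted p = 0.0247), a call lost without empagliflozin replicate 4 or 9 or vehicle replicate 10 (adjusted p = 0.0528 to 0.0564). Ambp, the precursor of alpha-1-microglobulin, fell by 0.60 ± 0.11 on the log2 scale (edgeR adjusted p = 0.0153). Grhpr, which clears glyoxylate, fell to 254.5 ± 44.9 CPM in empagliflozin libraries, against 340.8 ± 48.7 CPM in vehicle libraries (-0.45 ± 0.08, edgeR adjusted p = 0.0147). Ftl1 (ENSRNOG00000064385), encoding the light chain of the iron store ferritin, fell by 0.48 ± 0.10 on the log2 scale (edgeR adjusted p = 0.0329), and its reads can be shared with a second row of the same symbol, which was not called (-0.70, adjusted p = 0.299), so it is uncertain. The Ftl1 call was lost without any 1 of 9 of the 19 libraries (adjusted p = 0.0510 to 0.0673). Calls of Mypn, Rasl12, Ddt and Hint2, at -0.78, -0.51, -0.44 and -0.42, were likewise lost in 4, 6, 3 and 3 of the 19 fits that left out 1 library, those without empagliflozin replicates 4 and 9 among them in each case. Mpped1, Ambp, Ftl1, Mypn, Rasl12, Ddt and Hint2 all lost their calls without empagliflozin replicates 1, 4 and 5 together (edgeR adjusted p = 0.0798 to 0.135).

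Study A asks how the same genes stood in obese against lean kidneys without drug, from libraries shared with no other group here. There 5423 of 14240 genes (38.1%) were called, 19.6% higher and 18.5% lower in obese kidneys. Of the 45 genes that were higher with empagliflozin, 8 were higher and 19 lower in obese than in lean kidneys, and 18 were not called. Of the 47 genes that were lower with empagliflozin, 3 were higher and 20 lower in obese kidneys, and 24 were not called. The median obese over lean log2 fold change was -0.20 in the first set and -0.14 in the second, beside -0.01 over all genes. Some genes had opposite signs in the 2 comparisons, whose obese vehicle groups did not start from the same level. With all kidney groups scaled together Vdr averaged 44.5 ± 24.2 CPM with empagliflozin in study B (SD, n = 10), beside 20.2 ± 4.57 CPM in obese vehicle kidneys of study B (n = 9) and 45.9 ± 7.92 CPM in those of study A (n = 10). Fads2 averaged 31.5 ± 5.84 CPM with empagliflozin, 21.1 ± 3.34 CPM in obese vehicle kidneys of study B and 32.2 ± 7.41 CPM in those of study A. For Ace and Scd2 the obese vehicle groups were nearer, at 18.4 ± 2.90 and 83.7 ± 20.2 CPM in study B and 17.7 ± 2.10 and 86.1 ± 15.9 CPM in study A. Vdr, Ace, Fads2 and Scd2 were lower in obese than lean kidneys, at -0.45, -0.35, -0.89 and -0.91 (edgeR adjusted p = 0.000964, 0.00299, 4.5e-06 and 7.09e-08), and higher with empagliflozin. S100b was higher in obese kidneys, at 1.24 (edgeR adjusted p = 5.24e-05), and lower with empagliflozin. Other genes had the same sign in both: Miox, Slc34a1, Slc22a6, Fbp1 and Pc were lower in obese than lean kidneys, at -1.08, -0.60, -0.45, -0.27 and -0.47 (edgeR adjusted p = 8.9e-10, 3.69e-06, 0.00151, 0.0443 and 7.56e-05), and lower with empagliflozin in study B. Their obese vehicle groups also started from unlike levels. The means were 1331, 1591, 375.8, 483.4 and 260.5 CPM in study B and 1217, 1904, 611.3, 725.8 and 298.5 CPM in study A. Ceacam20 and Sectm1b were higher in both, at 0.92 and 0.95 in obese over lean kidneys (edgeR adjusted p = 0.000586 and 2.82e-07). Cyp24a1 and Apoc2, the called genes with the highest log2 fold changes by empagliflozin among those with at least 5 CPM in either group, were not called in obese over lean kidneys, at 0.04 and 0.00 (edgeR adjusted p = 0.846 and 0.998).

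**Figure D5:**
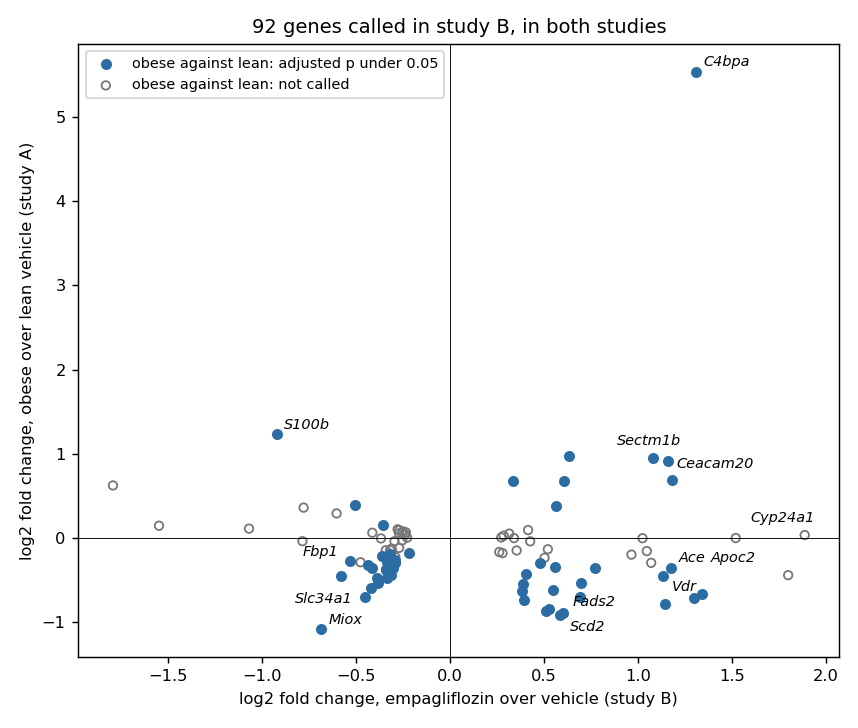
Log2 fold change of empagliflozin over vehicle in study B (x axis) against that of obese over lean vehicle kidneys in study A (y axis) for the 92 genes called in study B; filled points were also called in study A. Points fall in all 4 combinations of sign, with Vdr, Ace, Fads2 and Scd2 at the lower right and Miox and Slc34a1 at the lower left; the highest point is C4bpa, whose lean libraries held at most 0.0825 CPM.

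Combined treatment with BT2 plus empagliflozin was set beside empagliflozin alone. The vehicle libraries are shared by both comparisons with vehicle, so their values are given side by side, and the test of the difference is combination against empagliflozin, in which 4442 of 13992 genes (31.7%) were called. Cyp24a1 stood at 0.42 in the combination and 1.89 in empagliflozin alone over vehicle, and was lower in the combination than in empagliflozin alone by a log2 fold change of -1.46 (edgeR adjusted p = 1.56e-08). Apoc2 stood at -0.16 in the combination and 1.52 in empagliflozin alone (difference -1.68, edgeR adjusted p = 2.73e-06). Sectm1b stood at -0.80 in the combination and 1.08 in empagliflozin alone (difference -1.89, edgeR adjusted p = 9.87e-10). Cyp2c24 stood at -2.21 in the combination and 1.07 in empagliflozin alone, and Smpd3 at -2.31 in the combination and 1.03 in empagliflozin alone (differences -3.30 and -3.32, edgeR adjusted p = 1.62e-09 and 5.24e-10). Slc34a1 was lower still in the combination, at -1.35 over vehicle (difference -0.94, edgeR adjusted p = 5.38e-07), and Scd2 much higher, at 3.51 (difference 2.92, edgeR adjusted p = 1.14e-12). Empagliflozin libraries helped choose these genes and enter this test, so the differences are a description. Levels in study A, with all kidney groups scaled together, were not tested between BT2 alone (n = 9) and vehicle (n = 10). With BT2 and vehicle Cyp2c24 averaged 2.29 and 15.1 CPM, Smpd3 1.16 and 3.54, Sectm1b 17.7 and 30.1, and Cyp24a1 91.2 and 168.8. Apoc2 averaged 10.9 and 10.7 CPM, Slc34a1 1426 and 1904, and Scd2 470 and 86.1.

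For other genes the combination and empagliflozin alone were not told apart. Ace stood at 1.04 in the combination and 1.18 in empagliflozin alone over vehicle, with a difference of -0.16 ± 0.11 (edgeR adjusted p = 0.315). Vdr stood at 0.84 in the combination and 1.13 in empagliflozin alone (difference -0.29 ± 0.18, edgeR adjusted p = 0.230). Miox stood at -0.71 in the combination and -0.69 in empagliflozin alone, and Fbp1 at -0.41 in the combination and -0.53 in empagliflozin alone (differences -0.03 ± 0.10 and 0.12 ± 0.08, edgeR adjusted p = 0.822 and 0.316). Of the 45 genes higher with empagliflozin 22 were lower and 3 higher in the combination than in empagliflozin alone (14.8% and 17% of all genes tested), and of the 46 of the 47 lower ones that could be tested 25 were higher and 1 lower. Empagliflozin libraries both chose these genes and enter this test, so the counts are a description.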

How the data were processed

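RNA sequencing libraries (poly-A selected, stranded, from frozen kidney) were used as the authors deposited them. The deposited expected counts per gene are estimates, 7.70% of the values used not whole; per the submitters' processing notes STAR 2.7.3a, Salmon 1.5.2 and build mRatBN7.2 were used, with FastQC 0.11.9, Picard, MultiQC 1.11 and DESeq2 1.34.0. The authors' comparison table holds scaled counts (signal), log2 fold changes and p-values. In 19 of 19 libraries, 5 of them with a repeat run, the authors' scaled counts divided by the run sum were constant over genes (coefficient of variation up to 0.001). Runs were therefore summed and counts rounded. Of the count columns 79 were used, and 82 matched no sample and were not used.

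Genes were filtered with filterByExpr and tested with edgeR 4.0.16 (R 4.3.3, limma 3.58.1) by the quasi-likelihood F test with TMM scaling, trended dispersion and plate (replicates 1 to 5, replicates 6 to 10) as covariate, adjusted over all genes tested. The SE is the log2 fold change over the square root of F. The series text gives 10 rats per condition; nothing else ties a library to an animal, so p-values measure the spread between these libraries. Depth was 4.60 to 19.6 M counts per library, which limits precision for scarce genes.

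Members and lists were chosen with earlier results of these data known. Named genes were the called ones with a symbol and a group mean from 5 CPM up, 15 at each end of the log2 fold change, up to 6 called members per list, and a fixed set. Of these the ones the text needs are printed. Fgf10, Trpv5, Calb1, Khk, Akr1b1, Fasn, Acly, Srebf1, Lrp2, Cubn, C4bpa, Ndufa6, Cox6a1, Cyp1a1, Fam25a and Mgst3 were printed after their values were seen. The deposited table lists 30560 genes, of which 23398 had a symbol; G6pc1, Bckdk and other list genes without a matching symbol were not analysed here. The test was checked on simulated counts: 3.42% of calls were false. These counts held no plate effect and no library set apart from its group, so the share in the data may be higher. Promoters come from RefSeq (GRCr8) and are matched by symbol. DESeq2 1.42.0 was an alternative, beside those given in the closing section.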

Additional observations from a re-analysis of the deposited data

Results flagged for a closer look

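Of 162 values tested within a group (levels of most printed genes and sums of cell marker lists), 24 had 1 library far from the others. These were 17 in the empagliflozin group and 7 in the vehicle group. For independent, normally distributed values about 1 in 20 would be flagged. CPM values and marker sums that share genes need not follow that rate, so the number flagged is a description. Empagliflozin replicate 1 held 7 of them: Jchain at 437.4 CPM, Akr1b1 at 327.2 CPM, and summed marker levels of 4011 CPM for plasma cells, 113.0 CPM for T cells, 156.0 CPM for B cells, 69.47 CPM for neutrophils and 384.3 CPM for urothelium. Empagliflozin replicate 5 held 5, being highest for Vdr at 111.3 CPM, Slc5a2 at 262.6 CPM, Stra6 at 34.79 CPM, Rnf183 at 153.8 CPM and Fgf10 at 8.722 CPM. Empagliflozin replicate 6 was highest for Slc5a1 at 38.9 CPM, Pc at 277.4 CPM and Ceacam20 at 14.46 CPM. Empagliflozin replicate 7 had 213.6 CPM of skeletal muscle markers, and replicate 2 had 60.25 CPM of cardiac muscle markers. Vehicle replicate 1 was highest for Kl at 54.9 CPM, Slc12a3 at 391.6 CPM, Calb1 at 275.1 CPM and urothelial markers at 182.6 CPM. Vehicle replicate 3 was highest for Cyp27b1 at 3.188 CPM and lowest for Slc34a1 at 1294 CPM, and vehicle replicate 2 was highest for Mpped1 at 28.51 CPM. The part of these libraries in the results was not tested beyond the fits that leave them out.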

How the results depend on the processing

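The count of 92 genes called depended on the model, while none of the 60 named genes reversed its direction where a call was made. It was 559 with DESeq2, 640 with gene-wise dispersions, 262 with a term for a repeat run, 256 with all 6 kidney groups in one fit and 149 with vehicle replicate 8 kept. It was 23 without the plate term, 2 in plate 1 alone and 23 in plate 2 alone. Leaving out 1 library gave 31 to 187. Alternatives chosen after seeing the data gave 38 genes without the 3 plate 1 libraries with a repeat run, 14 without all 5 libraries with a repeat run, 63 without empagliflozin replicates 1, 4 and 5 (34 shared with the 92) and 89 with 3 batches. The 14 genes called without all 5 libraries with a repeat run included Cyp24a1, Ace, Sectm1b, Sorcs1, Ppp1r16b, Ceacam20, Fads2, Slc22a6, Grhpr and Cyp1a1. Beside Vdr, Apoc2 and Apoc3, other leading genes lost their calls in that fit. Among them were Miox, Fbp1, Slc34a1, Slc10a1, Smpd3 and Scd2 (edgeR adjusted p = 0.0621, 0.0897, 0.132, 0.0881, 0.0897 and 0.188). DESeq2 size factors, no low-count filter and the original run alone gave 100, 81 and 76. The fit with the replicate number as a block called 9 genes, all among the 92. Deviations of same-numbered libraries correlated at -0.354 to 0.103, so beyond the plate they share, same-numbered libraries did not deviate together. Of 60 named genes 60 kept their side of the threshold with size factors, 28 with the block and 42 without empagliflozin replicates 1, 4 and 5. With lean replicate 8 kept, 4560 genes were called in obese against lean kidneys, against 5423. The causes were not tested. Depth limits scarce genes such as Cyp27b1.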

Other observations

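Intercalated cell markers, of the acid-handling cells of the collecting duct, were positive in 9 of 10 genes (median 0.19 over all 10, against 0.01 over all genes). None of them was called, beside 0.651% of all genes. Summed intercalated marker levels had medians of 831.1 CPM with empagliflozin (592.7 to 1585) and 823.6 CPM with vehicle (784.6 to 1155). Cell cycle genes were positive in 19 of 22 with none called, and interferon response genes in 18 of 22 with none called. Summed cell cycle levels had medians of 252.8 CPM with empagliflozin and 229.5 CPM with vehicle. For interferon response the medians went the other way, at 630 CPM with empagliflozin (511.7 to 1263) and 676.7 CPM with vehicle (481.8 to 760.4). Urothelial markers were negative in 4 of 4 measured with none called, while their summed level ran from 1.26 to 384.3 CPM in empagliflozin libraries and from 4.50 to 182.6 CPM in vehicle libraries.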
